A study of Homo sapiens with 16 samples.

Results

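MHC class II genes and CIITA were followed across A375 human melanoma cells and their transfected derivatives. Transcript clusters, the probe groups that the array summarizes into 1 value, were taken where the array annotation carried the symbol of CIITA, CD74, HLA-DRA, HLA-DRB1, HLA-DRB5, HLA-DPA1, HLA-DPB1, HLA-DMA, HLA-DMB or HLA-DOB, alone or among other symbols. This gave 23 of the 33297 clusters, and all 10 genes were present. HLA-DMA and HLA-DPA1 each had a pair of clusters with identical values on every array, so 21 clusters were counted. Of these, 13 carried 1 symbol and 8 carried several. Several clusters can stand for 1 gene, so the clusters are not independent of each other. CD74, HLA-DRA and HLA-DRB1 were present only on clusters with several symbols: CD74 with ROS1, HLA-DRA with HLA-DQA1, and HLA-DRB1 either with HLA-DQB1 or with HLA-DRB3, HLA-DRB4, HLA-DRB5, HLA-DRB6 and HLA-DQB1 (the 6-symbol DRB clusters). Values of such clusters cannot be given to 1 gene.

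G10 and A7 are A375 cells that carry the human catalase cDNA in the pcDNA3 vector, and each is a single clone obtained by clonal dilution under geneticin. PCDNA3 cells carry the same vector without insert, and A375 cells were not transfected. The transfected lines were kept in geneticin. There were 4 arrays per line, stated by the study to be biological replicates, and the average of the PCDNA3 and A375 means is called control. An effect of catalase cannot be told apart from a property of the clone. Values are log2 RMA intensities. On this scale 1 unit is a doubling of signal, and the 381 olfactory receptor clusters, which stand for genes that are not expressed, had a 95th percentile of 5.18.

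The 16 arrays lay on 1 common scale, with medians from 5.85 to 5.97. CAT, the catalase gene, ranged from 7.74 to 8.55 in G10, from 8.92 to 9.12 in A7, from 8.51 to 8.71 in PCDNA3 and from 8.62 to 9.03 in A375. It was not called different from control in either clone by limma (log2 change -0.38, adjusted p = 0.0526 in G10, and 0.37, adjusted p = 0.124 in A7), so the CAT cluster did not stand above control on the arrays labelled G10. Whether its probes read the transfected cDNA is not known from the files. It was lower in G10 than in A7 (-0.75, adjusted p = 0.00221). SOX10, a transcription factor of the melanocyte lineage, had means of 9.43 in G10, 9.56 in A7, 9.32 in PCDNA3 and 9.56 in A375. Of the 11 melanoma markers with a cluster of 1 symbol, all lay above the olfactory receptor level in G10, A7 and PCDNA3 and 10 did in A375.

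MHC class II molecules are pairs of an alpha and a beta chain, such as HLA-DR and HLA-DP, that present peptides from endosomes to CD4+ T cells. The invariant chain CD74 accompanies the newly made pair and fills its groove, HLA-DM (HLA-DMA with HLA-DMB) then exchanges the remaining CD74 peptide for others, and HLA-DO (HLA-DOA with HLA-DOB) restrains HLA-DM. CIITA does not bind DNA itself. It is the coactivator on which transcription of these genes depends, and it is recruited to a promoter module of W/S, X and Y boxes by RFX, CREB and NF-Y. Professional antigen-presenting cells express the system constantly, most other cells do so after interferon gamma, and a part of melanomas express it without such a stimulus.

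Letters of this promoter module were looked for in the members' sequences. RefSeq promoter windows of GRCh38.p14, from 250 bases before to 50 bases after the annotated start, were matched by symbol for 8 of the 10 members, HLA-DPA1 with 2 windows. HLA-DRA and CIITA had no entry. The letters CTGATGATG, as in an X box, and ATTGG, the Y box letters that read CCAAT on the other strand, were searched on both strands. The following stretches, written 5′ to 3′ on the strand of the gene, are shown because they hold the letters that the members share, and capitals mark the matches.
HLA-DRB1: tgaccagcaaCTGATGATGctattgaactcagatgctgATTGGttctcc
HLA-DRB5: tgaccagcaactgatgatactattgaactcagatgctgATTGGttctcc
HLA-DMA: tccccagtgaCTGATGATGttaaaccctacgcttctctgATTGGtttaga
HLA-DMB: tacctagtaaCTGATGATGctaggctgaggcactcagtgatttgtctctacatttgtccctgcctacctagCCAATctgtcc
HLA-DOB: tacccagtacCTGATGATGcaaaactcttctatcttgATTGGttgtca
CD74: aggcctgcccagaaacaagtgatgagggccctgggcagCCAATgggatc
HLA-DPB1: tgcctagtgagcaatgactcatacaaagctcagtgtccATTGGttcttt

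These stretches lie upstream of the start at chr6:32589884-32589932 for HLA-DRB1, chr6:32530367-32530415 for HLA-DRB5, chr6:32953166-32953215 for HLA-DMA, chr6:32941040-32941121 for HLA-DMB and chr6:32817090-32817137 for HLA-DOB, all on the minus strand. The CD74 stretch is chr5:150412953-150413001 on the minus strand, and the HLA-DPB1 stretch is chr6:33075853-33075901 on the plus strand. CTGATGATG was found in 4 of the 9 member windows, those of HLA-DRB1, HLA-DMA, HLA-DMB and HLA-DOB, and in 95 of all 35116 promoter windows (0.271%). ATTGG was found in 7 of the 9 and in 12155 of all windows (34.6%). Both were found in 4 of the 9 and in 39 of all windows (0.111%). No matches of these letters overlapped in a member window. In HLA-DRB1, HLA-DMA and HLA-DOB the matches were 19, 20 and 18 bases apart, and in HLA-DMB the nearest one was 52 bases away and read CCAAT.

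The HLA-DRB1 and HLA-DRB5 stretches had 48 of 49 bases in common. The difference was G19A, with the base of HLA-DRB1 first and positions counted from 1 at the 5′ end, and it falls on the last base of the X box letters. The CD74 and HLA-DPB1 windows matched only ATTGG, and the 2 HLA-DPA1 windows matched neither. Of the 5 windows of other class II genes, all held ATTGG and 0 held CTGATGATG. Only exact letters were searched, so a window without a match may still hold a variant of either box. No match was tested as a working box. The letters were chosen after these promoters had been looked at, so the counts are a description.

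**Figure D1:**
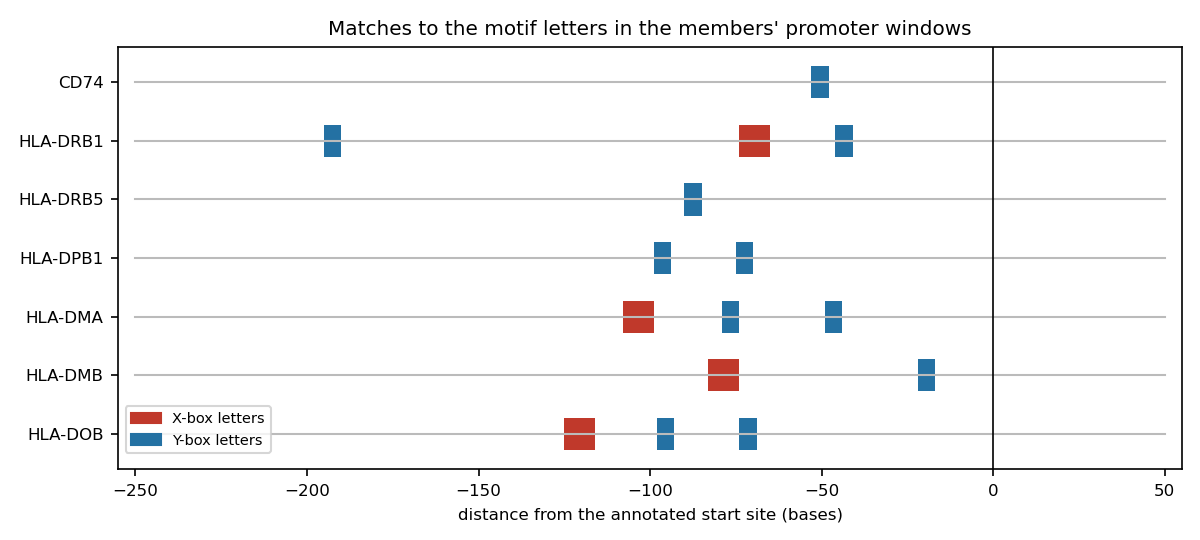
Positions of the matches to the X box letters (red) and to the Y box letters on either strand (blue) in the promoter windows of 7 members, against the distance in bases from the annotated start site (vertical line). In HLA-DRB1, HLA-DMA and HLA-DOB a red match is followed by a blue one after 18 to 20 bases, and in HLA-DMB the blue match follows after 52 bases.

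The first question was whether the class II system differed between G10 and control. All 21 member clusters were higher in G10, by a median of 1.91 log2 units (from 0.64 to 2.98), or 1.90 with the 3 clusters that were below the olfactory receptor level in control taken at their bound, and on each of them every G10 array was above every control array. By limma at an adjusted p under 0.05, 21 of 21 were called higher, where 9.92% of all clusters were. With 1 cluster per gene, 10 of 10 were called higher. Under a stricter limit, an adjusted p under 0.001 together with a log2 change of 1 or more, 20 of 21 were called higher, against 0.784% of all clusters, and the exception was CIITA. The groups did not overlap in this direction for 5.96% of all clusters, and the median change of all clusters was -0.04. In RNA of whole cultures, more cells with the transcript and more transcript per cell cannot be told apart.

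CIITA, the coactivator, had values of 6.74, 6.27, 6.56 and 6.61 in G10. It had 6.03, 5.90, 6.18 and 6.001 in PCDNA3 and 5.68, 5.69, 5.82 and 5.90 in A375. The lowest G10 array was thus close above the highest PCDNA3 array. The change was 0.64 ± 0.09 (SE, 4 arrays against 8), a 1.56-fold higher signal (limma, adjusted p = 7.88e-05). CIITA had the smallest measured log2 change of the 21 clusters. Its control arrays, from 5.68 to 6.18, lay close above the olfactory receptor level of 5.18, so background may understate the change.

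The CD74/ROS1 cluster had 11.9985, 11.90, 12.42 and 11.78 in G10. It had 10.52, 10.12, 10.18 and 10.01 in PCDNA3 and 9.83, 10.06, 9.56 and 9.62 in A375. All G10 arrays lay more than 1 unit above the highest control array. CD74 is the invariant chain, and the cluster was 4.10-fold higher in G10, with a log2 change of 2.03 ± 0.18 (limma, adjusted p = 1.11e-06). ROS1, a receptor tyrosine kinase, had 3 further clusters, each shared with other genes. They changed by 0.29 (with EZR, adjusted p = 0.224), -0.51 (with SDC4, adjusted p = 0.000142) and 0.05 (with LRIG3 and SLC34A2, adjusted p = 0.744), and the last of them was below the olfactory receptor level in both groups.

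The HLA-DR clusters had the largest log2 changes among the members. The brightest HLA-DRA/HLA-DQA1 cluster, which holds probes of the DR alpha chain, had 12.44, 12.27, 12.43 and 12.30 in G10. It had 9.61, 9.77, 9.99 and 9.61 in PCDNA3 and 9.33, 9.51, 9.02 and 9.03 in A375. G10 was 7.35-fold higher, with a log2 change of 2.88 ± 0.13 (limma, adjusted p = 6.67e-10), and the other 2 clusters with these symbols changed by 2.88 and 2.90. The SD was 0.09 in G10, 0.18 in PCDNA3 and 0.23 in A375.

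The brightest 6-symbol DRB cluster, for the beta chains, had 10.98, 10.94, 10.93 and 10.94 in G10. It had 7.81, 8.56, 8.60 and 8.34 in PCDNA3 and 8.03, 7.92, 7.51 and 7.62 in A375. The G10 arrays were nearly equal, with an SD of 0.02, whereas PCDNA3 had an SD of 0.36. The log2 change was 2.90 ± 0.13 (limma, adjusted p = 5.03e-10), and the other 2 clusters changed by 2.98 and 2.90.

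HLA-DRB5, a second DR beta chain with a cluster of its own, had 9.05, 9.04, 8.67 and 8.66 in G10. It had 6.15, 6.53, 6.74 and 6.48 in PCDNA3 and 6.01, 6.24, 5.75 and 5.56 in A375. The gap between the groups was wide, and the log2 change was 2.67 ± 0.13, a 6.37-fold higher signal (limma, adjusted p = 1.3e-09). The HLA-DRB1/HLA-DQB1 cluster had 6.73, 6.85, 7.01 and 6.59 in G10, and all control arrays, from 4.41 to 4.95, were below the olfactory receptor level. Its change is therefore at least 1.62, with a measured difference of 2.09 (limma, adjusted p = 1.49e-09).

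The HLA-DP chains were measured on clusters of 1 symbol. HLA-DPA1, the alpha chain, had 12.40, 12.44, 12.58 and 12.34 in G10. It had 10.88, 10.65, 10.72 and 10.69 in PCDNA3 and 10.40, 10.64, 10.23 and 10.24 in A375. The groups were far apart, with a log2 change of 1.88 ± 0.12 (limma, adjusted p = 2.42e-08) and 1.90 on the second cluster. HLA-DPB1, the beta chain, had 10.87, 10.91, 11.06 and 10.97 in G10. It had 8.96, 9.24, 9.13 and 9.32 in PCDNA3 and 8.92, 9.11, 8.79 and 8.87 in A375. Its log2 change was 1.91 ± 0.08 (limma, adjusted p = 3.09e-10), with 1.86 and 2.00 on the other clusters, so both DP chains changed by nearly the same amount.

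HLA-DM, the peptide exchanger, was also higher in G10. HLA-DMA had 9.44, 9.27, 9.65 and 9.55 in G10. It had 8.38, 8.44, 8.33 and 8.44 in PCDNA3 and 8.38, 8.41, 7.89 and 7.97 in A375. A375 arrays 3 and 4 were lower than the other controls, and the change was 1.20 ± 0.11 (limma, adjusted p = 1.28e-06), with 1.17 on the second cluster. HLA-DMB had 9.77, 9.77, 10.01 and 10.04 in G10. It had 8.34, 8.24, 8.18 and 8.34 in PCDNA3 and 8.14, 8.43, 8.18 and 8.12 in A375. The controls were close together, and the change was 1.65 ± 0.09 (limma, adjusted p = 4.26e-09), with 1.61 on the second cluster.

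HLA-DOB, the beta chain of the HLA-DM inhibitor, was dim. Its brighter cluster had 5.13, 5.44, 5.52 and 5.95 in G10, so that 3 of the 4 arrays were above the olfactory receptor level. It had 3.94, 3.94, 3.91 and 3.76 in PCDNA3 and 4.13, 4.22, 4.41 and 3.96 in A375, all below that level. The change is at least 0.33, with a measured difference of 1.47 (limma, adjusted p = 1.74e-06), and at least 0.21 on the second cluster.

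By role, the log2 changes in G10 were 0.64 for the coactivator, 2.03 for the CD74/ROS1 cluster, 2.67 to 2.98 for the DR clusters above the olfactory receptor level in both groups, 1.86 to 2.00 for DP, and 1.17 to 1.65 for DM. The 95% intervals of these 7 DR clusters began at 2.39, and those of DP ended at 2.20. Clusters differ in probes and in how far their signal follows RNA, and the differences between genes were not tested.

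**Figure D2:**
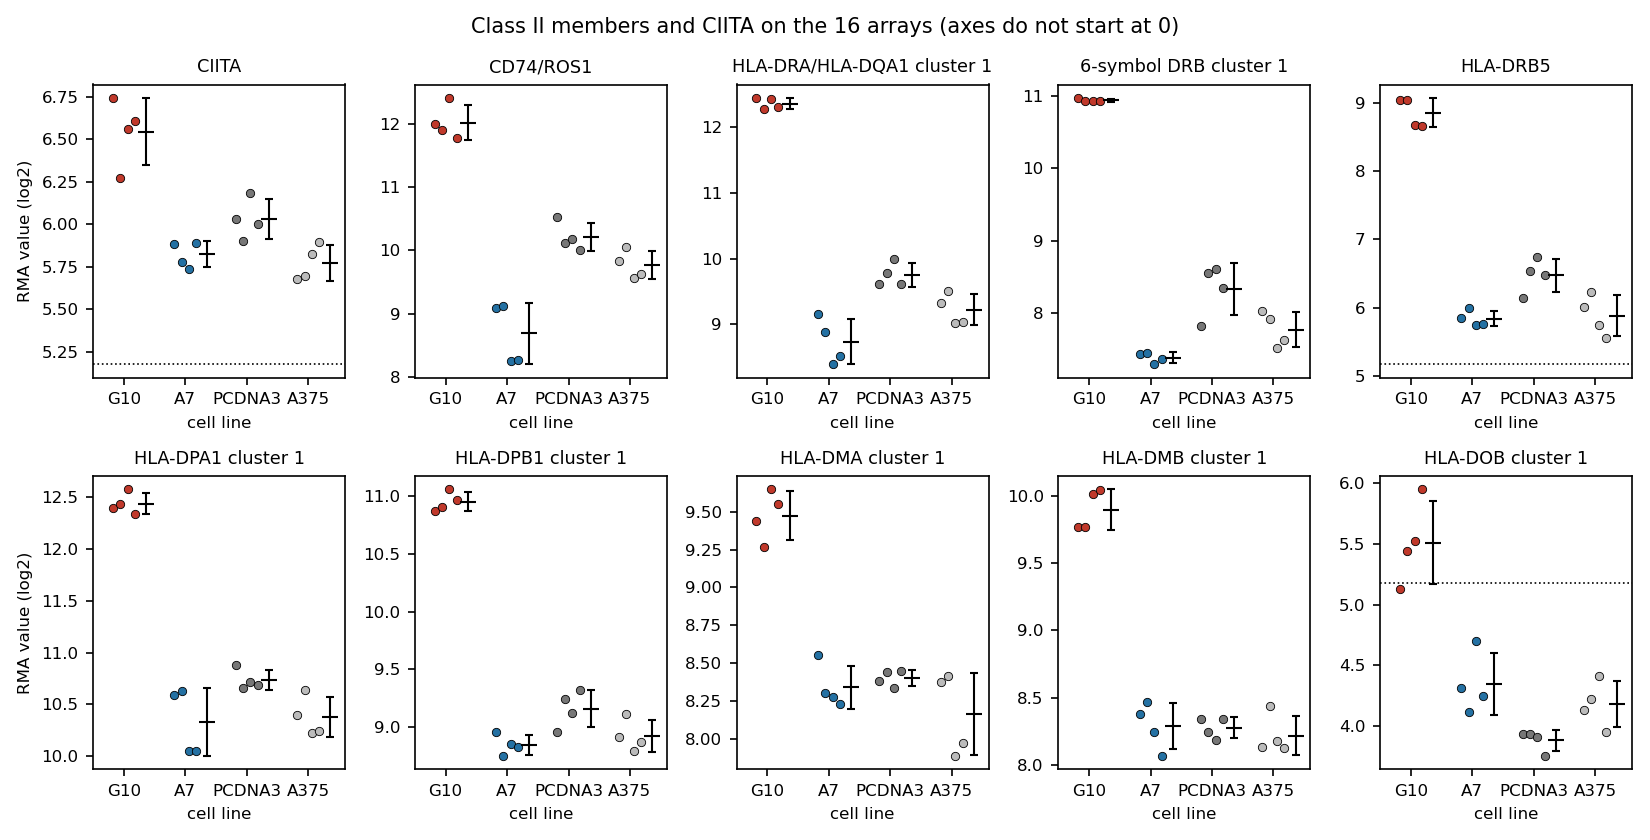
RMA values (log2, vertical axes not starting at 0) of 1 cluster per member on the 4 arrays of G10, A7, PCDNA3 and A375, with mean and SD beside the points, and the olfactory receptor level of 5.18 dotted where it falls within the panel. The G10 arrays stand above all others in each panel, and the A7 arrays lie below both controls for CD74/ROS1 and the 6-symbol DRB cluster.

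The same question was asked of A7. No member cluster was called higher, where 3.46% of all clusters were. In the other direction 7 of 21 were called lower by limma, where 2.23% of all clusters were, and 14 were not called. With 1 cluster per gene, 3 of 10 were called lower. The median change was -0.20 (from -1.30 to 0.31), against -0.02 over all clusters. The 7 that fell were the CD74/ROS1 cluster, the 3 HLA-DRA/HLA-DQA1 clusters and the 3 6-symbol DRB clusters, all of them with several symbols. Among the 13 clusters with 1 symbol, 0 were called by limma and 3 had an unadjusted p under 0.05, against 17.1% of all clusters. Every A7 array was below every control array in 4 of the 21 clusters, against 2.47% of all clusters.

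This fall depended on which control was used. Against A375 cells alone 1 cluster was called lower, the CD74/ROS1 cluster, and against PCDNA3 cells alone 8 were. The calls also differed between the A7 arrays. With A7 arrays 1 and 2 only, 2 clusters were called lower, CD74/ROS1 and HLA-DRB1/HLA-DQB1, and the second was not among the 7. With arrays 3 and 4 only, 8 were, among them HLA-DPA1 but not the brightest 6-symbol DRB cluster. That DRB cluster changed by -0.61 with arrays 1 and 2 only and by -0.73 with arrays 3 and 4 only. G10 was called higher in 21 of 21 clusters against either control alone. The clones share the control arrays, so their changes are not independent of each other.

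The CD74/ROS1 cluster had 9.09, 9.12, 8.25 and 8.27 in A7, below each of the control arrays, which ranged from 9.56 to 10.52. A7 arrays 3 and 4 were lower than arrays 1 and 2. The log2 change was -1.30 ± 0.18, so the signal was 0.405 times that of control (limma, adjusted p = 0.00032). It was -1.08 against A375 alone (adjusted p = 0.00613) and -1.52 against PCDNA3 alone (adjusted p = 0.000407).

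The brightest HLA-DRA/HLA-DQA1 cluster had 9.15, 8.88, 8.39 and 8.52 in A7, against 9.02 to 9.99 on the control arrays. Array 1 of A7 was above 2 of the A375 arrays, so the groups overlapped. The change was -0.75 ± 0.13 (limma, adjusted p = 0.00296), and against A375 alone it was -0.49 (adjusted p = 0.102). The brightest 6-symbol DRB cluster had 7.43, 7.45, 7.29 and 7.36 in A7, against 7.51 to 8.60 on the control arrays. The groups did not overlap, the change was -0.67 ± 0.13 (limma, adjusted p = 0.00523), and against A375 alone it was -0.39 (adjusted p = 0.191).

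The other members were not called in A7. HLA-DRB5 had 5.86, 5.99, 5.75 and 5.77 in A7, within the range of A375, and a change of -0.34 (limma, adjusted p = 0.182), although against PCDNA3 alone it was called, at -0.63 (adjusted p = 0.0252). CIITA had 5.88, 5.78, 5.74 and 5.89 in A7, also within the range of A375, and a change of -0.08 with a 95% interval from -0.26 to 0.11. HLA-DPA1 had 10.59, 10.63, 10.05 and 10.05 in A7, where arrays 1 and 2 again lay above arrays 3 and 4, and changed by -0.22 (limma, adjusted p = 0.375). With A7 arrays 3 and 4 only it was called lower (-0.51, adjusted p = 0.0318). HLA-DPB1 changed by -0.20, HLA-DMA by 0.06 and HLA-DMB by 0.04, with intervals from -0.37 to -0.02, from -0.17 to 0.29 and from -0.15 to 0.23. HLA-DOB was below the olfactory receptor level in A7 and in control.

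**Figure D3:**
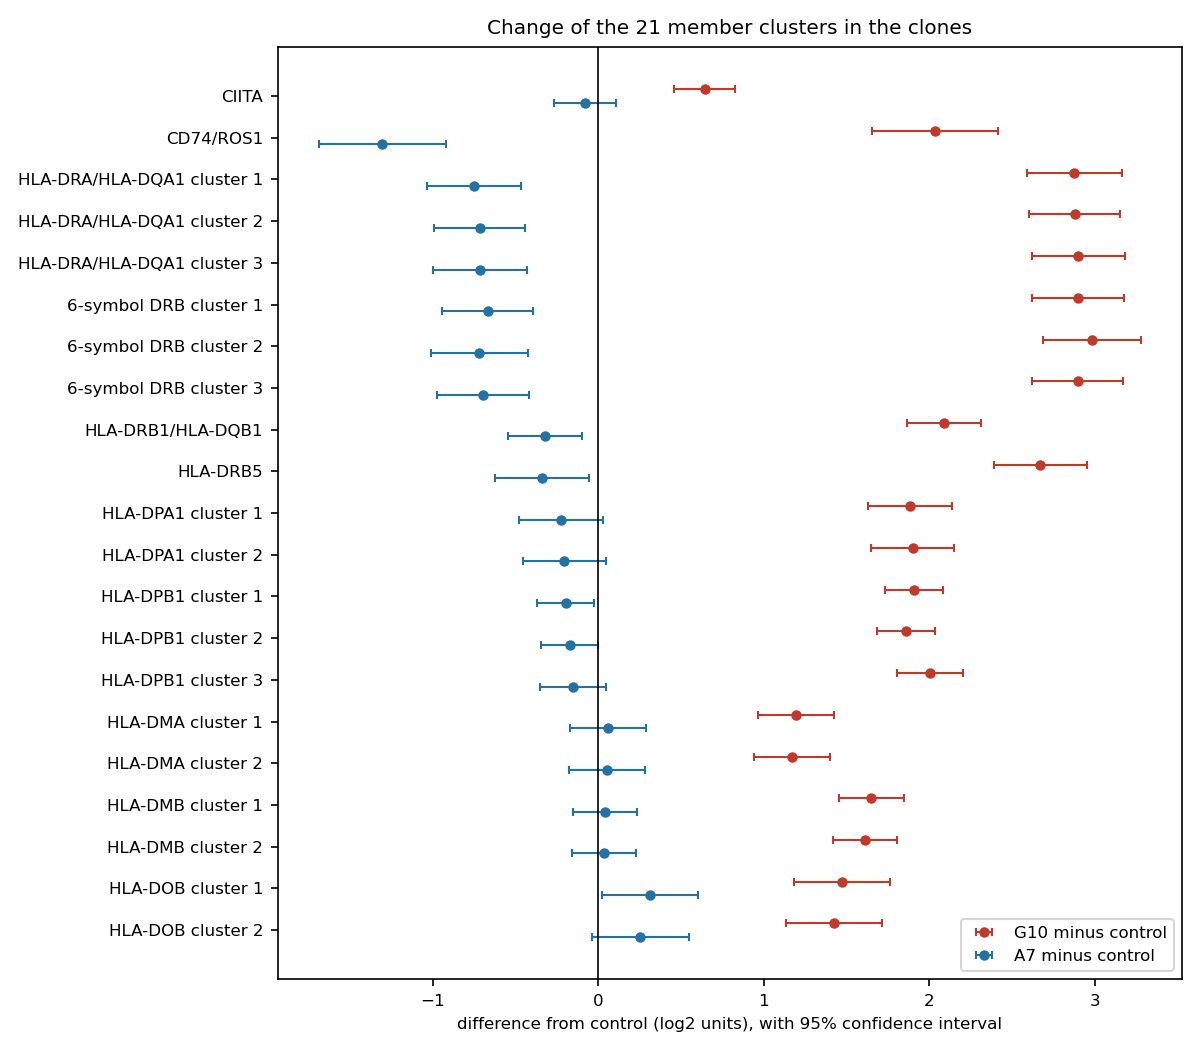
Log2 difference from control of the 21 member clusters in G10 (red, upper point of each pair) and A7 (blue, lower point), with 95% confidence intervals from limma. All G10 intervals lie above 0, from CIITA at 0.64 to a 6-symbol DRB cluster at 2.98, and among the A7 points CD74/ROS1 at -1.30 lies farthest to the left.

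The clones were next compared with each other, a comparison that uses no control array. All 21 clusters were higher in G10 than in A7, by a median of 2.11 (from 0.72 to 3.70), and every G10 array was above every A7 array. By limma 21 of 21 were called higher, where 7.83% of all clusters were, and the arrays were separated in this direction for 8.89% of all clusters. The brightest HLA-DRA/HLA-DQA1 cluster was 12.3-fold higher in G10 (log2 difference 3.63 ± 0.16, adjusted p = 2.81e-10), the brightest 6-symbol DRB cluster 11.8-fold and the CD74/ROS1 cluster 10.1-fold. CIITA was 1.65-fold higher (0.72 ± 0.10, adjusted p = 0.000113). HLA-DRB5 differed by 3.01, HLA-DPA1 and HLA-DPB1 by 2.11 each, HLA-DMB by 1.61 and HLA-DMA by 1.14. For the HLA-DRB1/HLA-DQB1 cluster and HLA-DOB, which were below the olfactory receptor level in A7, the differences are at least 1.62 and 0.33.

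The empty vector line was set against the parental line as a background. None of the 21 clusters was called by limma, where 0.045% of all clusters were called higher and 0.0781% lower, and 13 of 21 had an unadjusted p under 0.05, against 12.6% of all clusters. The differences of PCDNA3 from A375 were positive in 19 of 21 clusters and negative in the 2 HLA-DOB clusters, with a median of 0.26 (from -0.31 to 0.59), against 0.01 over all clusters. With 1 cluster per gene, 9 of 10 were positive and 6 of 10 had an unadjusted p under 0.05 by limma. Every PCDNA3 array was above every A375 array in 6 clusters, against 6.26% of all clusters, and below in 2, against 4.87%. The largest differences were 0.59 for HLA-DRB5 (adjusted p = 0.116), 0.56 for the brightest 6-symbol DRB cluster (adjusted p = 0.126) and 0.52 for the brightest HLA-DRA/HLA-DQA1 cluster (adjusted p = 0.167). CIITA differed by 0.26 with a 95% interval from 0.04 to 0.47 (adjusted p = 0.302).

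From high to low, the lines were ordered G10, PCDNA3, A375 and A7 by the means of the brightest HLA-DRA/HLA-DQA1 cluster (12.36, 9.75, 9.22 and 8.74), the brightest 6-symbol DRB cluster (10.95, 8.33, 7.77 and 7.38) and the CD74/ROS1 cluster (12.02, 10.21, 9.77 and 8.69). Only for CD74/ROS1 were the neighbours A375 and A7 called different, and PCDNA3 and A375 were not called different for any member. For CIITA the order was G10, PCDNA3, A7 and A375 (6.55, 6.03, 5.82 and 5.77), with no call among the last 3. For HLA-DMB it was G10, A7, PCDNA3 and A375 (9.90, 8.29, 8.28 and 8.22) with no call among the last 3.

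Class II genes outside the member list were also higher in G10. Of 11 further clusters with distinct values, 10 were called higher and 0 lower by limma, where 9.92% and 7.9% of all clusters were, with a median of 0.95. In A7 0 were called, where 3.46% of all clusters were called higher and 2.23% lower. HLA-DOA, the partner chain of HLA-DOB, was higher on both of its clusters (1.79, adjusted p = 2.35e-09, and 1.53, adjusted p = 5.38e-07). HLA-DQA1, a DQ alpha chain, changed by 0.86 on its own cluster (adjusted p = 0.000129), while the 3 clusters shared by HLA-DQA1 and HLA-DQA2 changed by 3.26, by at least 0.84 and by at least 0.87 (measured 1.01 and 0.95). Those shared by HLA-DQB1 and HLA-DQB2 changed by 2.92, 0.76 and 0.63. The cluster that was not called was that of HLA-DQB1 alone, which was below the olfactory receptor level in both groups. The pseudogene HLA-DPB2 was called but lay below that level in both groups too.

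The factors that bind the class II promoters or modify their chromatin moved less than the member clusters by the median. In G10, 5 of 12 were called higher and 2 lower by limma, where 9.92% and 7.9% of all clusters were, with a median of 0.12. In A7 0 were called higher and 1 lower, where 3.46% and 2.23% of all clusters were. RFXAP, a subunit of the RFX complex, changed by 0.66 (adjusted p = 0.00012) and the acetyltransferase KAT2B by 0.75 (adjusted p = 0.00691). Neither change was smaller than the 0.64 of CIITA. EZH2, which writes the repressive H3K27 methylation, changed by -0.59 (adjusted p = 0.0133). The other calls were RFX5 at 0.33, NFYA at 0.47, NFYB at 0.45 and CREB1 at -0.30, and NFYA was also the 1 gene called lower in A7 (-0.33, adjusted p = 0.0337).

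Interferon gamma is the usual inducer of CIITA. Of 11 measured genes of its pathway, 3 were called higher and 2 lower in G10 by limma, where 9.92% and 7.9% of all clusters were, with a median of 0.05. JAK2 (0.57, adjusted p = 0.000273) and the receptor chain IFNGR1 (0.50, adjusted p = 0.0064) were higher and JAK1 (-0.46, adjusted p = 0.00352) was lower. IFNG, the cytokine, was at 2.65 in G10 and 2.61 in control, below the olfactory receptor level, and IRF1, an early target, had a change of -0.34 that was not called (adjusted p = 0.169). Of 13 genes that interferon gamma induces, 1 was called higher and 2 lower, against the same shares of all clusters, with a median of -0.12. The called genes were the tryptophanyl-tRNA synthetase WARS1 (0.46, adjusted p = 0.0134), the lysosomal thiol reductase IFI30 (-0.67, adjusted p = 0.000176) and the adhesion molecule ICAM1 (-0.38, adjusted p = 0.0332). GBP2 had the largest positive change of the 13 and was not called (0.85, limma, adjusted p = 0.0775), while 10 of the 13 changes were negative. Its values were 8.44, 8.54, 6.56 and 6.81 in G10, 5.76 to 6.36 in PCDNA3 and 6.97 to 7.84 in A375. CXCL9, CXCL11, IDO1, GBP4 and GBP5 were below the olfactory receptor level on every array of G10 and of the controls. CXCL10, a chemokine, had 2.19, 2.32, 2.32 and 2.56 in G10. It had 2.80, 2.60, 7.99 and 2.52 in PCDNA3 and 2.53 to 2.73 in A375, so that array 3 of PCDNA3 alone stood above that level. The same array was the highest of the 4 PCDNA3 arrays for CIITA (6.18), HLA-DRB5 (6.74), the brightest HLA-DRA/HLA-DQA1 cluster (9.99) and the brightest 6-symbol DRB cluster (8.60). It was the lowest of them for HLA-DMA (8.33) and HLA-DMB (8.18). For CD74/ROS1, HLA-DPA1, HLA-DPB1 and HLA-DOB it was neither the highest nor the lowest. Without PCDNA3 array 3, 21 of 21 member clusters were still called higher in G10 and 7 lower in A7.

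Among 15 genes of antigen processing and class II traffic, 2 were called higher and 7 lower in G10 by limma, with a median of -0.13. Over all clusters, 9.92% were called higher and 7.9% lower. The proteases CTSS, which trims the invariant chain, and CTSL were lower (-1.01, adjusted p = 0.000121, and -0.91, adjusted p = 2.66e-06), as were CTSC, LGMN, SPPL2A, CD82 and IFI30. MARCHF8, a ubiquitin ligase, and AP2M1, an adaptor subunit of endocytosis, were higher (0.70, adjusted p = 0.000411, and 0.42, adjusted p = 0.000704). In A7, 3 were called higher, CTSB, CTSD and MARCHF8, and 0 lower, where 3.46% and 2.23% of all clusters were.

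For class I presentation, 3 of 13 measured genes were called higher and 0 lower in G10 by limma, where 9.92% and 7.9% of all clusters were, with a median of 0.08. The called genes were the peptide transporter TAP1 (0.76, adjusted p = 5.84e-06), its partner TAPBP (0.61, adjusted p = 0.000242) and the immunoproteasome subunit PSMB8 (0.38, adjusted p = 0.0145). NLRC5, the class I counterpart of CIITA, changed by -0.03. In A7, 5 of the 13 were called higher, where 3.46% of all clusters were, B2M among them (0.54, adjusted p = 0.00425). The class I heavy chains had no cluster of 1 symbol and were not used here.

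Of 11 genes of costimulation and adhesion, 1 was called higher and 4 lower in G10 by limma, where 9.92% and 7.9% of all clusters were. PDCD1LG2 was called higher but below the olfactory receptor level in both groups, and CD276 (-0.71, adjusted p = 0.0025), TNFSF4, ICAM1 and ICOSLG were lower. CD80, CD86 and CD40 were below that level in both G10 and control. Of 12 genes near CIITA on its chromosome, 1 was called higher and 2 lower, against the same shares of all clusters. The called genes were ATF7IP2 (0.55, adjusted p = 0.00973), EMP2 (-0.93, adjusted p = 1.73e-05) and RMI2 (-0.35, adjusted p = 0.00293), while DEXI and CLEC16A changed by -0.28 and 0.06 without a call.

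Markers of haematopoietic cells, among which are the professional antigen-presenting cells, were read on the same arrays. Their mean ranged from 4.63 to 4.79 on the G10 arrays, from 4.67 to 4.90 in A7, from 4.72 to 4.81 in PCDNA3 and from 4.71 to 4.78 in A375. Of 19 markers, 8 were above the olfactory receptor level in G10, 8 in A7, 7 in PCDNA3 and 8 in A375. In G10, ITGAX was called higher (0.55, adjusted p = 0.0156) and FCER1G lower (measured change -0.59, adjusted p = 0.00385), and the mean of FCER1G in G10 was below that level, so its fall is at least 0.090. The 8 markers above it in G10 were the B cell genes CD79A, CD79B and PAX5 and the myeloid genes CD14, ITGAX, ITGAM, SPI1 and TYROBP. The other 11, among them the pan-leukocyte marker PTPRC, the B cell marker MS4A1, the macrophage marker CD163 and the T cell marker CD3E, were below it. In A7, 1 of the 19 was called higher by limma, also under the stricter limit, and 0 lower. Over all clusters 3.46% were called higher in A7 and 2.23% lower. The changes of the 19 markers in A7 ran from -0.23 to 1.41. Among the 11 melanoma markers, PMEL (2.46, adjusted p = 0.000939) and TYRP1 (1.58, adjusted p = 4.43e-05) were higher in G10 and CSPG4 (-1.39, adjusted p = 3.77e-07) and MCAM were lower. Their part in the class II result was not tested.

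**Figure D4:**
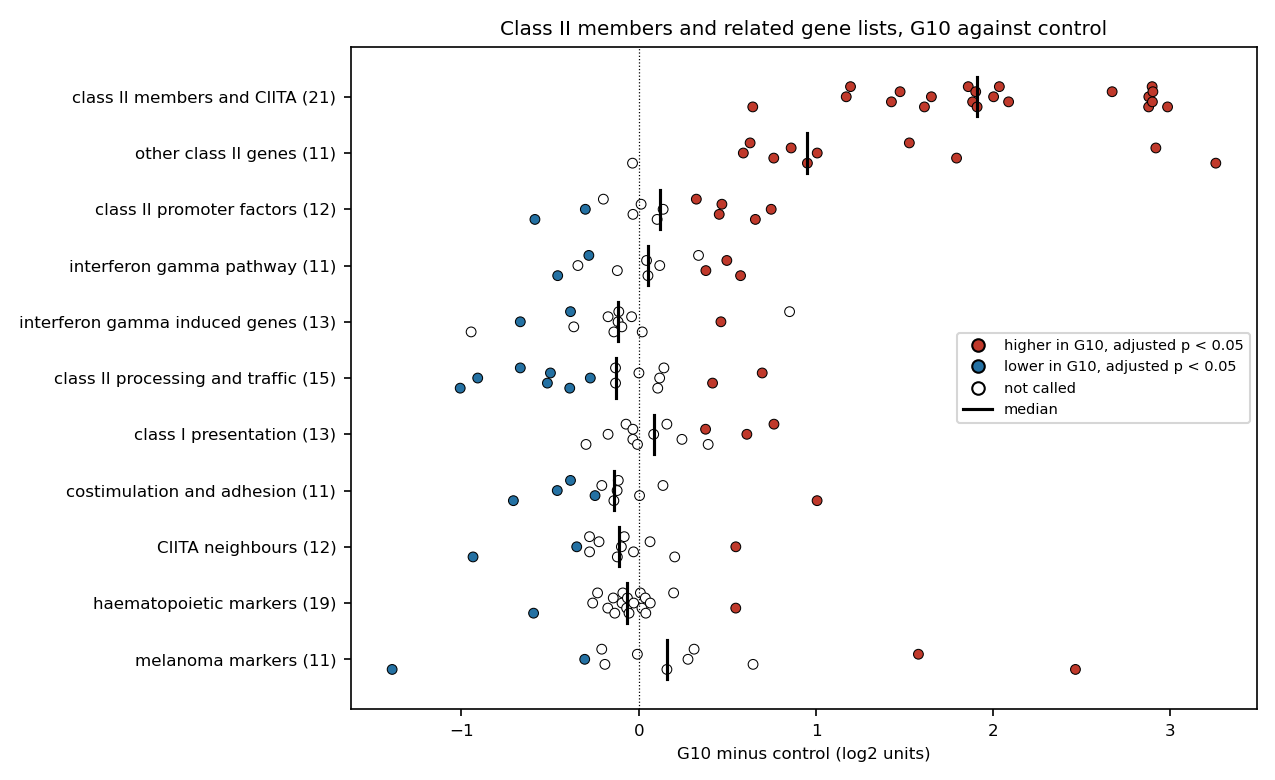
Log2 difference of G10 from control for the 21 member clusters and for the genes of 10 related lists (number measured in parentheses), 1 point per cluster, with the median as a black line. Red points were called higher and blue points lower by limma at an adjusted p under 0.05, and open points were not called. The members and the other class II genes, with medians of 1.91 and 0.95, lie to the right of the remaining lists, whose medians run from -0.14 to 0.16.

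Finally, genes were ranked by how closely their profile followed that of the members. The members' profile was the mean of the 13 clusters with 1 symbol, each centred on its own mean, and it ranged from 1.16 to 1.33 on the G10 arrays and from -0.62 to -0.28 on the other arrays. Over the 16 arrays and 18406 genes, the smallest root mean square differences were those of ZNF420 (0.186 log2 units), SNX24 (0.187), MELTF (0.192), ZNF329 (0.198), MAP4K5 (0.208) and FAM50B (0.210). The 13 member clusters that make up the profile had 0.084 to 0.554, with a median of 0.210. The 6 genes were picked as the nearest, so their closeness to that median is no test. The measure also depends on the size of the change. ZNF420 had means of 8.32 in G10, 6.82 in A7, 6.92 in PCDNA3 and 6.87 in A375. MELTF, which encodes the melanoma-associated antigen melanotransferrin, had 7.78 in G10, 6.16 in A7, 6.36 in PCDNA3 and 6.33 in A375. The likeness is a description over 4 lines and was not tested.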

How the data were processed

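Affymetrix Human Gene 1.0 ST arrays were run on RNA of 16 samples. Per the study's methods, the authors used RMA for background correction, normalization and probe summary and limma for their tests, in versions not given in the sources used here. The deposited log2 values of 33297 transcript clusters were analysed as they stood, and the probe-level data were not used. The number of arrays limits the precision.

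Clusters were named from the array annotation: 19460 carried 1 symbol, 1754 several and 12083 none. In R 4.3.3 with limma 3.58.1, lmFit was run with 1 mean per group over all arrays, followed by eBayes (3.57 prior degrees of freedom) and Benjamini-Hochberg adjustment over all clusters of a comparison. Calls were made at an adjusted p under 0.05. Python 3.11.15 and pandas 2.3.3 served for tables and plots. The procedure was tested on simulated data. The 95th percentile of olfactory receptor clusters served as the level of unexpressed genes. If the mean of only 1 of the groups compared was under this level, its arrays were raised to it, which gave the "at least" value. Promoters came from RefSeq (GRCh38.p14), and the array annotation names no genome build used here.

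The text names all members, up to 3 called genes of each other list with the largest change in G10, and the 6 genes nearest to the members' profile. A gene with several clusters was represented by the one with the highest mean. Naming of any other gene followed sight of its value. The members, the lists and the tests were chosen with earlier results of these data known. Alternatives covered the choice of control, normalization, variance model, array weights, symbol and level filters, limits of the calls, the replicate number as a block and the omission of single arrays.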

Additional observations from a re-analysis of the deposited data

Results flagged for a closer look

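On 3 clusters 1 array stood apart from the other 3 of its line by the gap it left, in 84 such tests, where chance gives about 1 in 20 (5%). On the second HLA-DPB1 cluster, G10 array 3 had 10.91 and the others 10.83 to 10.84. On the brightest 6-symbol DRB cluster, G10 array 1 had 10.98 and the others 10.93 to 10.94. On the brighter HLA-DOB cluster, PCDNA3 array 4 had 3.76 and the others 3.91 to 3.94, below the level of unexpressed genes.

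The change against the shared control differed between G10 and A7 for all 10 members, tested as G10 minus A7 by limma. The difference was 0.72 for CIITA, 3.34 for CD74/ROS1, 3.63 for HLA-DRA/HLA-DQA1, 3.57 for the 6-symbol DRB cluster that stands for HLA-DRB1, 3.01 for HLA-DRB5, 2.11 for HLA-DPA1 and 2.11 for HLA-DPB1. It was 1.14 for HLA-DMA and 1.61 for HLA-DMB. For HLA-DOB the measured difference was 1.16, with A7 below the level of unexpressed genes.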

How the results depend on the processing

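The count of 21 member clusters higher in G10 stood at 21 without each array in turn, against A375 or PCDNA3 cells alone, and under the other normalizations and variance models, and was 20 under the stricter limit of an adjusted p under 0.001 and a log2 change of 1 or more. With clusters of 1 symbol only it was 13 against control and 13 against A7, which is all such clusters. The count of 7 lower in A7 was 7 without each array in turn, 1 against A375 cells alone, 0 with clusters of 1 symbol only, 1 under the stricter limit, and 2 with A7 arrays 1 and 2 only. Of these 2, HLA-DRB1/HLA-DQB1 was not among the 7. Splits of the A7 and G10 arrays were chosen after seeing the data. PCDNA3 against A375 gave 0 calls without each array in turn and 2 with array weights, the brightest 6-symbol DRB cluster (0.61, adjusted p = 0.0367) and HLA-DRB5 (0.64, adjusted p = 0.0296). The causes were not tested.

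Uncalled changes of A7 turned in sign for CIITA (0.050 against A375 alone), HLA-DPA1 (0.059 with A7 arrays 1 and 2 only, but -0.51 and called with arrays 3 and 4 only, adjusted p = 0.0318), HLA-DMA (-0.060 against PCDNA3 alone, -0.012 to 0.10 over the single arrays left out, lowest without A7 array 1, and -0.029 with A7 arrays 3 and 4 only) and HLA-DMB (-0.019 to 0.11 over the single arrays left out, lowest without A7 array 2, and -0.092 with A7 arrays 3 and 4 only). The CD74/ROS1 fall in A7 ran from -1.73 to -0.88 and was called each time.

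The deviations of same-numbered arrays of different lines correlated at over 0.1 in 3 of 24 pairs only (from -0.16 to 0.23). These correlations gave little sign of pairing by number. Within a line, the deviations of arrays 1 and 2 correlated at 0.08 in A7 and 0.30 in G10. Those of arrays 3 and 4 correlated at 0.17 in A7 and 0.14 in G10. Deviations from the mean of the same 4 arrays lean to negative correlations where arrays are independent. Positive values within a line are therefore raised, and arrays 1 and 2, and arrays 3 and 4, resembled each other in both clones. The labels do not say what arrays 1 and 2, or 3 and 4, shared, and a batch cannot be told from them. With the replicate block the counts were 21 in G10, 7 in A7, 21 between the clones and 0 between the controls. Each clone is 1 clone, CD74, HLA-DRA and HLA-DRB1 were read only on shared clusters, and HLA-DOB lay at the level where signal is not separated from background.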
